A study of Homo sapiens with 24 samples.

Results

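RNA-seq libraries of T/C-28a2 cells, an immortalised human chondrocyte line, were compared between cells transfected with a plasmid that expresses WNK2 and cells that were not transfected, both kept in media with sorbitol. The comparison holds 8 of the 24 libraries analysed here, chosen by their labels: 4 labelled WNK2 trans Sor and 4 labelled WT Sor. Both groups carry the unedited WNK2 gene, and both were cultured for 7 days with 100 mM sorbitol in media with 2% serum. The WNK2 trans Sor cells had received 2 ug of plasmid by lipofection 48 hours before sorbitol was added. The other groups, also of 4 libraries each, were WT Ctr and WNK2 trans Ctr, the same 2 kinds of cells in isotonic media, and WNK2- Ctr and WNK2- Sor, from a WNK2 mutant line in either medium. The controls received no plasmid, so an effect of WNK2, of plasmid DNA and of the lipid reagent cannot be told apart. The study's methods call the 4 libraries of a group biological replicates, all from 1 cell line.

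Members of the WNK (With-No-Lysine) family of kinases help cells to keep their volume. Their best known substrates are a pair of related kinases, the products of STK39 and OXSR1, and through these they set how much salt the cotransporters of the SLC12 family carry across the membrane. Articular chondrocytes live in a hyperosmotic matrix that they build from type II collagen and aggrecan. In osteoarthritis (OA) they make more matrix-degrading enzymes, such as matrix metalloproteinases (MMPs), and inflammatory cytokines, and the matrix is lost. The question of this comparison is how the transcriptome differs when WNK2 is raised during chronic hyperosmotic stress.

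The transfected gene itself was read before any other. WNK2 (ENSG00000165238, GRCh38 chromosome 9, 93184916 to 93320572, forward strand) had 289.6, 319, 319 and 283 normalised read counts in the WT Sor libraries (replicates 1 to 4) and 3793, 2245, 2659 and 3433 in the WNK2 trans Sor libraries. A normalised count is the number of reads in a gene, divided by the library's effective size and multiplied by the average effective size. Every library labelled WNK2 trans Sor lay above every WT Sor library, and WNK2 rose 10-fold (log2 fold change 3.33, SE 0.21, adjusted p = 1.28e-11, quasi-likelihood test of edgeR, adjusted by Benjamini-Hochberg over all tested genes, as for every adjusted p given here). In isotonic media the order was the other way: 3097, 1441, 2133 and 3409 in the libraries labelled WT Ctr and 296, 238, 183 and 291 in those labelled WNK2 trans Ctr. The libraries labelled WNK2 trans Ctr thus went against their label, holding fewer WNK2 reads than every WT Ctr library. Of the libraries labelled as untransfected, those in sorbitol held fewer WNK2 reads than every one in isotonic media. The study's supplement differs from these counts in both respects. It gives similar WNK2 levels for transfected and untransfected cells under sorbitol, and finds no significant change with transfection or with sorbitol. The WNK2 reads do not show which labels are off, and the labels of the sorbitol libraries were not tested beyond these reads. The direction of every difference given here, the rise of WNK2 under sorbitol included, therefore rests on the labels, and WT Sor and WNK2 trans Sor below are the libraries labelled so. The count of a gene does not separate its own transcripts from those of the plasmid, so these cannot be told apart.

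**Figure D1:**
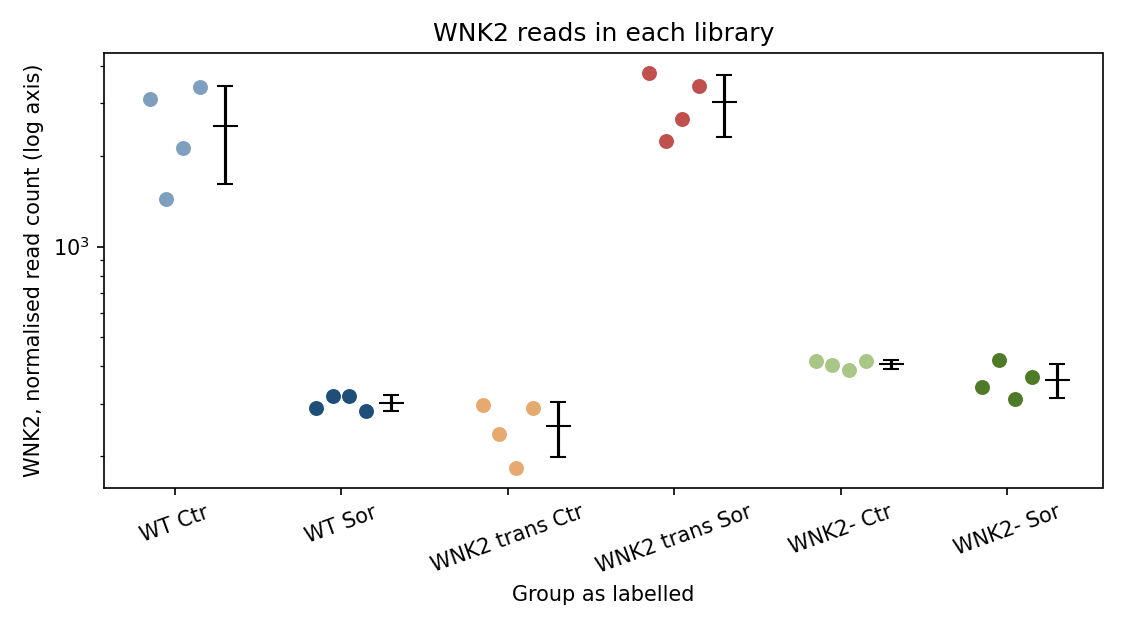
WNK2 reads in each of the 24 libraries, as normalised read counts on a log axis, by group as labelled. Points are libraries and the black marks beside them the mean and SD of 4. The WNK2 trans Sor libraries (2245 to 3793) overlap the WT Ctr libraries (1441 to 3409), and the WNK2 trans Ctr libraries (183 to 296) lie near those labelled WT Sor (282.8 to 319). The WNK2- Ctr (387.9 to 417.3) and WNK2- Sor (311.1 to 419.4) libraries lie at or somewhat above the level of WT Sor.

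The total count ran from 14979799 to 17588934 reads in WT Sor and from 14908600 to 19054291 in WNK2 trans Sor. The WT Sor libraries were close to one another (chi-square per degree of freedom 2.26 to 4.91 between pairs), and the WNK2 trans Sor libraries less so (11.7 to 64.1). On the first principal component of the 500 most variable genes of the 16 libraries with the unedited gene (64.8% of variance), WNK2 trans Sor replicate 1 stood at 31.6 and replicates 2 to 4 at 39.5 to 43.2, against 0.67 to 3.90 in WT Sor. Differences also moved with the base composition of the genes. In the fifth of genes with the highest GC content (58.1% to 75.8%) the median log2 fold change was −0.40 and 35.1% of genes were called lower, against 0.15 and 5.57% in the fifth with the lowest. This trend was carried by WNK2 trans Sor replicates 2, 3 and 4, whose median log2 ratio to WT Sor in GC-rich genes was −0.88, −0.51 and −0.42, while replicate 1 stood at 0.00. Its part in the results was not tested beyond a fit with each library's trends with GC content and gene length removed, which is given beside most of the lists where it moved a count of calls by more than 1.5 times.

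**Figure D2:**
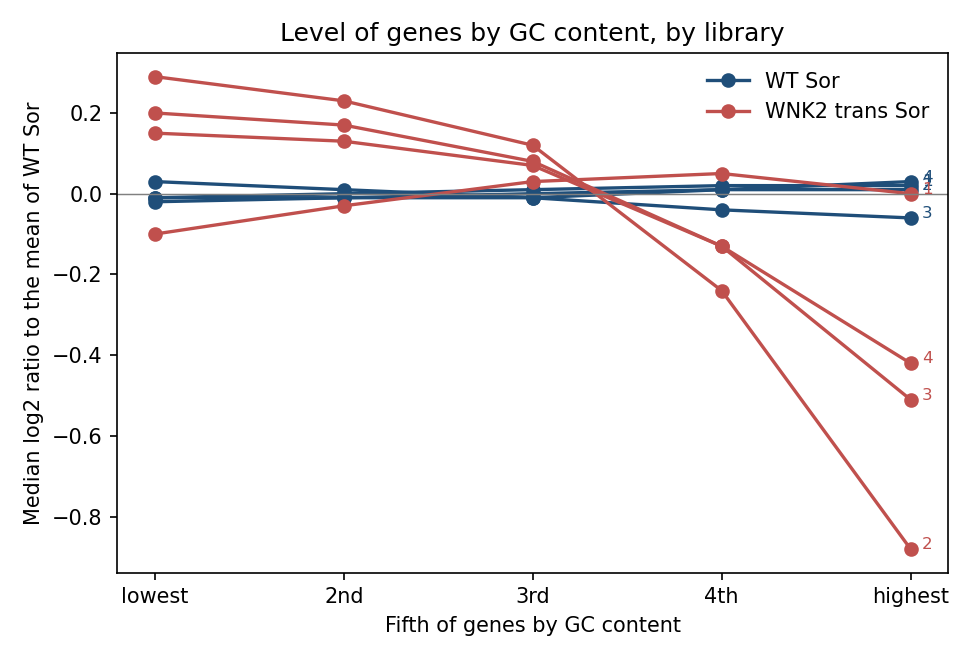
Median log2 ratio of each library to the mean of WT Sor (vertical axis) in 5 equal groups of genes ordered by GC content (horizontal axis), 1 line for each of the 8 libraries, numbered by replicate. The 4 WT Sor lines stay near 0, WNK2 trans Sor replicates 2 to 4 fall in the GC-rich genes to between −0.42 and −0.88, and replicate 1 does not.

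Of 16600 genes that passed a filter on low counts, of 62703 counted, 5254 (31.7%) differed between WNK2 trans Sor and WT Sor at an adjusted p under 0.05, 2675 higher (16.1%) and 2579 lower (15.5%). Of these, 787 rose and 775 fell at least 2-fold (9.41% of genes in all). The groups did not overlap in 5022 genes (30.3%). With nearly 1 in 3 genes called, the share called among the members of a gene list is read against these percentages, and the median log2 fold change of a list against that of all tested genes, 0.01. The number called was 6628 without WNK2 trans Sor replicate 1, the library with the lowest score on that component among its group, and 6202 with the GC and length trends removed, where 4095 of the 5254 genes (77.9%) were again called in the same direction and 15 in the opposite one, and where the fitted log2 fold changes shifted by a median of −0.12. Of 136 genes given here with values and an annotated position, 78 overlap another annotated gene on either strand, and since the strand setting of the counting is not given in the sources used here, reads of such pairs may be shared or left uncounted.

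Among the 13 genes that the study's text names for transfected cells under sorbitol, 9 rose and 4 fell. The study chose this list on these samples, so its counts are not independent evidence of a direction. MMP3, MMP9, MMP13, IL1A, IL1B, GREM1, WNT5B, RIPK2 and RUNX2 rose, and ACAN, COL2A1, COMP and MATN3 fell. MMP3 (stromelysin), which degrades proteoglycans and activates other MMPs, had 23.9, 17.9, 24.4 and 21.4 normalised counts in WT Sor and 271, 409.5, 631 and 483 in WNK2 trans Sor (log2 fold change 4.34, SE 0.22, adjusted p = 2.18e-13). The lowest transfected library held over 10 times the counts of the highest control. MMP13, the main collagenase of type II collagen, had 132, 114, 106 and 126 and 186, 248, 243 and 259 (log2 fold change 0.98, SE 0.16, adjusted p = 4.66e-05). MMP9, a gelatinase, was at 158 to 206 in WT Sor and 516 to 878 in WNK2 trans Sor, a log2 fold change of 1.91 (SE 0.19, adjusted p = 2.79e-08). The groups did not overlap for any of these 3 MMPs.

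IL1B encodes interleukin 1 beta, a cytokine that drives cartilage breakdown in culture. It was counted at 183, 212, 256 and 239 in WT Sor and at 1349, 1105, 925 and 1085 in WNK2 trans Sor (log2 fold change 2.33, SE 0.16, adjusted p = 3.79e-11), with all 4 transfected libraries above all controls. IL1A, its sister cytokine, was at 24.5 to 38.2 and 96.3 to 161 (log2 fold change 2.10, SE 0.26, adjusted p = 8.23e-07). GREM1, a secreted inhibitor of BMP ligands, rose from between 1941 and 2083 to between 5842 and 8983 (log2 fold change 1.87, SE 0.12, adjusted p = 1.11e-11), and WNT5B, a WNT ligand, from between 166 and 219 to between 508 and 700.5 (log2 fold change 1.57, SE 0.14, adjusted p = 4.17e-09). RIPK2, a kinase downstream of NOD receptors, had a smaller log2 fold change of 0.72 (SE 0.11, adjusted p = 1.31e-05). RUNX2, a transcription factor of hypertrophic chondrocytes and osteoblasts, had one of 0.40 (SE 0.11, adjusted p = 0.00757). Its groups overlapped, with 816, 1092, 1146 and 1120 in the transfected libraries against 746 to 838 in the controls, and its call was lost when a log2 change of at least 0.3 was asked for (adjusted p = 0.234).

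The 4 cartilage genes of that list were at low levels in both groups. ACAN, the aggrecan core protein, had 126, 108, 99.4 and 113 normalised counts in WT Sor and 32.5, 23.1, 19.0 and 45.0 in WNK2 trans Sor (log2 fold change −1.89, SE 0.35, adjusted p = 0.000179). COL2A1, the type II collagen chain, had 43.5, 69.3, 70.0 and 52.1 and 21.7, 20.1, 25.4 and 29.4 (log2 fold change −1.27, SE 0.25, adjusted p = 0.000298). COMP, a matrix protein that binds collagens, had 22.9, 23.9, 36.5 and 47.0 and 16.9, 0, 6.34 and 13.8 (log2 fold change −1.83, SE 0.44, adjusted p = 0.00255), and MATN3, a cartilage matrilin, had 73.0, 90.8, 74.1 and 72.5 and 26.5, 12.1, 42.3 and 4.59 (log2 fold change −1.88, SE 0.35, adjusted p = 0.000205). All 4 genes fell without overlap of the groups, but the counts behind COMP and MATN3 in the transfected libraries were few, from 0 to 42.3, and without WNK2 trans Sor replicate 3 the log2 fold change of MATN3 was −2.49. Per length of gene the level of COL2A1 was 2.08 TPM (counts per length, brought to the same sum in each library) in WT Sor and 0.874 TPM in WNK2 trans Sor.

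**Figure D3:**
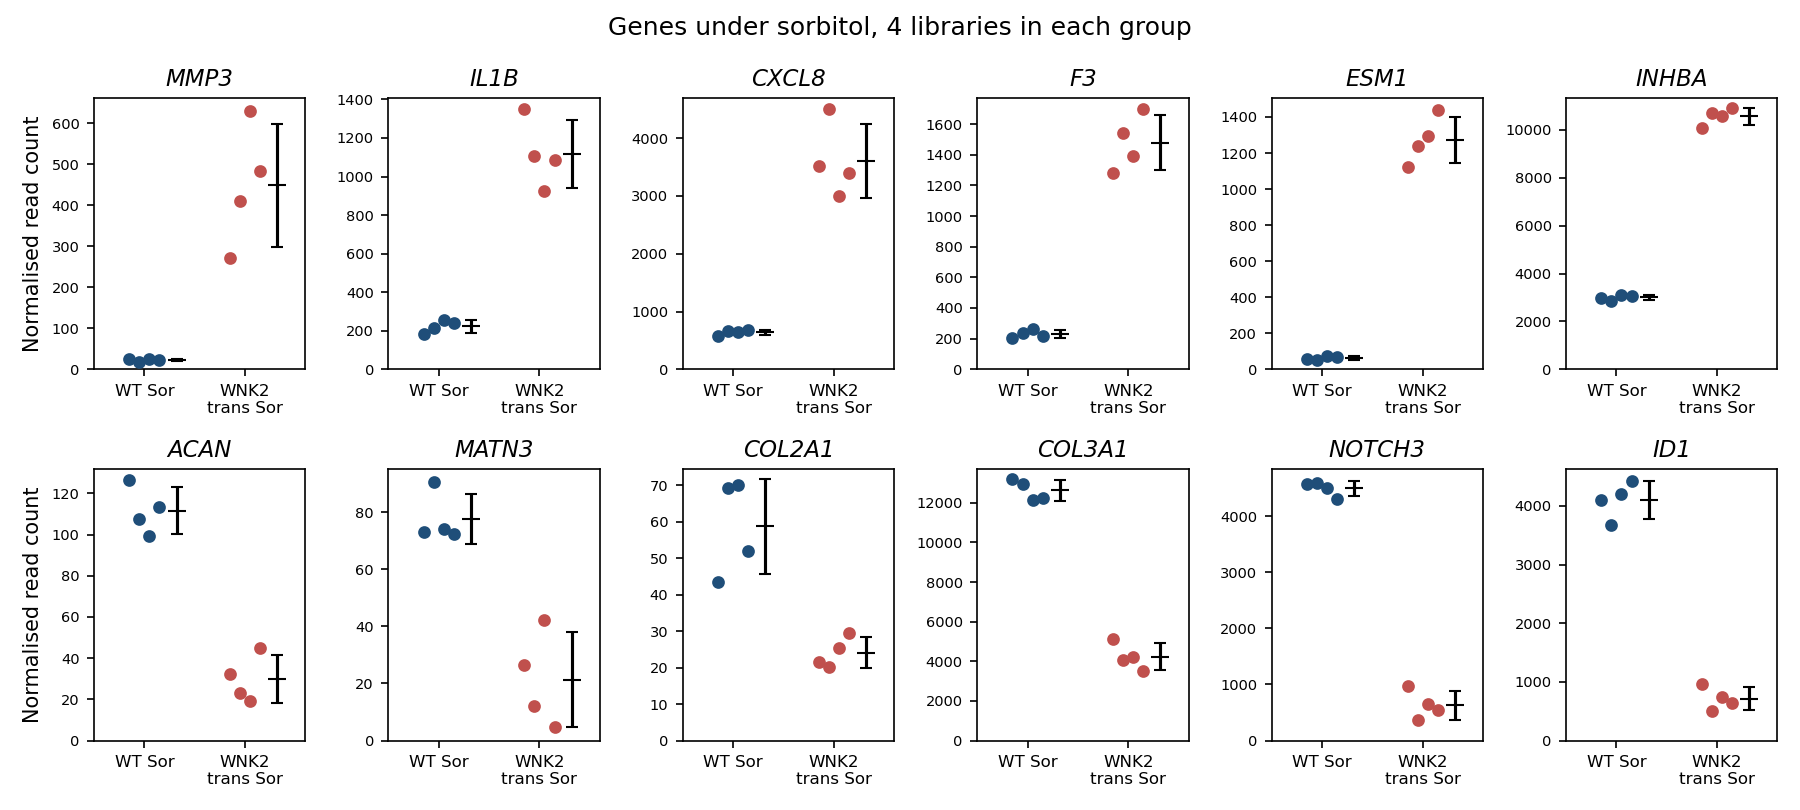
Normalised read counts (vertical axes, each from 0) of 12 genes in the 4 WT Sor and the 4 WNK2 trans Sor libraries. Points are libraries and black marks the mean and SD of 4. The upper 6 genes are higher and the lower 6 lower in every transfected library than in every control.

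Of 31 tested genes for chemokines and cytokines of the IL-1 and IL-6 groups with their receptors, 10 rose (32.3%, against 16.1% of all genes) and 5 fell (16.1%, against 15.5%), with a median log2 fold change of 0.31 (0.11 with GC and length trends removed, where 12 rose and 6 fell). CXCL8 encodes interleukin 8, the main attractant of neutrophils. It had 581, 657, 644 and 680 normalised counts in WT Sor and 3527, 4500, 2999 and 3404 in WNK2 trans Sor (log2 fold change 2.49, SE 0.13, adjusted p = 4.99e-13), a rise of 5.63-fold in which every transfected library passed every control. CSF2 (GM-CSF), a growth factor of myeloid cells, had 6.53, 8.36, 5.07 and 6.13 and 116, 96.4, 55.0 and 88.1 (log2 fold change 3.75, SE 0.43, adjusted p = 2.79e-07), so it was nearly silent in the controls. CSF3 (G-CSF) rose by 1.56, the neutrophil chemokines CXCL1 and CXCL3 by 1.42 and 1.23, LIF, an IL-6 family cytokine, by 1.08, the monocyte chemokine CCL2 by 1.04, and IL6 itself by 0.82 on the log2 scale (adjusted p from 2.54e-08 for CXCL1 to 0.00353 for CXCL3). Those that fell were the receptors IL1RAP, LIFR and IL1R1 and the ligands CXCL12 and CSF1. IL1R1, the signalling receptor of interleukin 1, was at 562 to 705 in WT Sor and 221 to 328 in WNK2 trans Sor (log2 fold change −1.18, SE 0.21, adjusted p = 9.48e-05). Of 28 tested NF-kB subunits and feedback genes, 6 rose (21.4%), among them the apoptosis inhibitor BIRC3, and 2 fell (7.14%), the feedback inhibitors TNFAIP3 and BCL3 (median −0.02). Without WNK2 trans Sor replicate 1 the number that fell was 6, and without any of 5 others it was 1, while with GC and length trends removed 11 rose and 2 fell (median 0.15).

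Promoters are printed for CXCL8, F3 and PLAUR, which rose, and for POSTN, which fell, to show where the AP-1 site TGANTCA lies. AP-1 is the dimer of FOS and JUN proteins that many stress and cytokine signals act through. The printed promoters all hold the site, as do those of FST and MT2A, which rose. Most promoters read for the genes named here had no match, among them those of ESM1, IL1B, CSF2, IL6, CXCL1 and INHBA, which also rose. Sequences are those of RefSeq on GRCh38.p14 for the 250 bases before the start of the gene, 5′ to 3′ on the strand of the gene, with each match in capitals. The site begins 137 bases before the start in CXCL8 (chr4:73740319-73740568, forward strand), 223 and 210 bases before it in F3 (chr1:94541760-94542009, reverse strand), 186 bases before it in PLAUR (chr19:43670170-43670419, reverse strand) and 220 bases before it in POSTN (chr13:37598769-37599018, reverse strand).
CXCL8: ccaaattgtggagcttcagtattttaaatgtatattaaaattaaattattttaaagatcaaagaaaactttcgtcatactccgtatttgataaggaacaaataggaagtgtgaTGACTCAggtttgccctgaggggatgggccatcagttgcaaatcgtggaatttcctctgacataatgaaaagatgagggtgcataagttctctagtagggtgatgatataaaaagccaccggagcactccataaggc
F3: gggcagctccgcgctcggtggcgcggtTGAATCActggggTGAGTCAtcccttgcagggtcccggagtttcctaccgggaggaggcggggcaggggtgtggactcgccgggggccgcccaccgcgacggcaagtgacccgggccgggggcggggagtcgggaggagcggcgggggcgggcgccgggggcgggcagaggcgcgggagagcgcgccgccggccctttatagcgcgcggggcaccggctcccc
PLAUR: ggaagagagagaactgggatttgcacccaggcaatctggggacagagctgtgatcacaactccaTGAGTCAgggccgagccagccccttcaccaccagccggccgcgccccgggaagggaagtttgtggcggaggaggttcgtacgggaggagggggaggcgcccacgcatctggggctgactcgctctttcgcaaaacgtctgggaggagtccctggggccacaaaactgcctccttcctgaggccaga
POSTN: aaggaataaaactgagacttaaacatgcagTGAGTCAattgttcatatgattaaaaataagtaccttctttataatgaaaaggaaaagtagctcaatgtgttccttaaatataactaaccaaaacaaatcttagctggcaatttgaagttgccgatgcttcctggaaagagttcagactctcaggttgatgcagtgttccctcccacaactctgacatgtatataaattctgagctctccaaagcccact

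Promoters, read here to 50 bases after the start, were found for 8216 of the 16600 tested genes, and 4.98% of them held TGANTCA, which reads the same on both strands. The share was 5.87% among the 1380 that rose and 4.83% among the 1325 that fell. With a cut at 2-fold, chosen after the values were seen, it was 12.2% of 327 that rose and 6.13% of 359 that fell. The promoters also differed in base composition, with a median GC content of 58.7% in the first of these sets, 69.7% in the second and 65.7% over all tested genes, and the part of this in the shares was not tested. The E-box CACGTG was in 5.50% and 8.64% of the same 2 sets and in 9.68% of all tested genes, and the NFAT core TGGAAA, on either strand, in 17.7%, 15.3% and 15.1%. A match describes the letters only. Of the AP-1 genes themselves, FOSL1, a FOS-family subunit, had 1885, 1845, 1695 and 1956 normalised counts in WT Sor and 5740, 3017, 3714 and 4637 in WNK2 trans Sor (log2 fold change 1.21, SE 0.20, adjusted p = 6.26e-05). JUN rose (log2 fold change 0.56, SE 0.18, adjusted p = 0.0169), but its log2 fold change was 0.31 (adjusted p = 0.119) without WNK2 trans Sor replicate 1 and 0.53 (adjusted p = 0.0526) without WT Sor replicate 4. FOS had a log2 fold change of −0.65 (SE 0.22, adjusted p = 0.0229), which was lost without WT Sor replicate 3 (−0.49, adjusted p = 0.108) or without WNK2 trans Sor replicate 2, 3 or 4. EGR1, an immediate early transcription factor, fell from between 3154 and 3926 to between 860.2 and 2090 (log2 fold change −1.46, SE 0.21, adjusted p = 8.25e-06), as did KLF9, a Kruppel-like factor induced by glucocorticoids, from between 2600 and 2773 to between 845 and 1028 (log2 fold change −1.54, SE 0.10, adjusted p = 1.05e-11).

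Among 31 tested matrix proteases and inhibitors, 9 rose and 17 fell (54.8%), with a median log2 fold change of −0.69. Beside the 3 MMPs above, ADAMTS6, a metalloproteinase of the ADAMTS family, rose from between 404 and 428 to between 1603 and 2814 normalised counts (log2 fold change 2.49, SE 0.15, adjusted p = 1.02e-11). ADAMTS1, a proteoglycanase, rose from between 867 and 947 to between 1931 and 2036 (log2 fold change 1.13, SE 0.09, adjusted p = 6.64e-10). In the plasminogen system PLAUR, the urokinase receptor, had 1358, 1357, 1389 and 1460 in WT Sor and 4361, 4782, 4434 and 4216 in WNK2 trans Sor (log2 fold change 1.68, SE 0.10, adjusted p = 1.05e-11). Its highest control lay far below the lowest transfected library. ADAMTS5, the main aggrecanase of mouse cartilage, fell from between 262 and 328 to between 124 and 197 (log2 fold change −0.82, SE 0.22, adjusted p = 0.00609). MMP14, a membrane-bound collagenase, and MMP11, a stromelysin of stromal cells, fell, with log2 fold changes of −0.69 (SE 0.16, adjusted p = 0.00191) and −1.36 (SE 0.24, adjusted p = 8.44e-05). ADAMTS10, which acts in microfibrils, fell from between 240.1 and 329.7 to between 44.2 and 104. With GC and length trends removed, 9 rose and 13 fell with a median of −0.34. The collagenase MMP1, the stromelysin MMP10 and the inhibitors TIMP1 and TIMP3 were listed at 0 counts in all 24 libraries and were not tested. They are among 87 listed genes at 0 in every library, of which 81 (93.1%) overlap another annotated gene, against 63.1% of the 1067 tested members, so a 0 here does not show that a gene was silent.

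Genes of the extracellular matrix were mostly lower in WNK2 trans Sor. Of 17 tested genes of the cartilage matrix (of 28 listed), 10 fell (58.8%, against 15.5% of all genes) and 1 rose, with a median log2 fold change of −0.88. COL9A3 and COL9A2, chains of the type IX collagen that decorates type II fibrils, had 209, 216, 189 and 209 and 198, 194, 174 and 192 normalised counts in WT Sor and 67.4, 12.1, 32.8 and 23.9 and 86.6, 33.1, 37.0 and 20.2 in WNK2 trans Sor (log2 fold changes −2.63 (SE 0.35, adjusted p = 2.34e-06) and −2.13 (SE 0.32, adjusted p = 1.34e-05)). WNK2 trans Sor replicate 1 was the highest of its group for both. The rise was in HAPLN1, the link protein that ties aggrecan to hyaluronan: 1191, 1215, 1298 and 1179 in WT Sor and 1853, 2775, 2122 and 1879 in WNK2 trans Sor (log2 fold change 0.82, SE 0.12, adjusted p = 1.12e-05). PRG4, the joint lubricant lubricin, had 5.97 to 20.4 and 0 to 6.34 normalised counts (log2 fold change −2.85, SE 0.72, adjusted p = 0.00361), with groups that overlapped. Its log2 fold change was −4.29 without WNK2 trans Sor replicate 3 and −2.41 without replicate 4. With GC and length trends removed, 9 of the 17 fell and 1 rose, with a median of −0.80. SOX9, the master transcription factor of chondrocytes, was listed at 0 counts in all 24 libraries. It overlaps another annotated gene, so the 0 does not show that it was silent.

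Of 39 tested genes of fibrillar and fibroblast matrix, 22 fell (56.4%) and 1 rose, with a median log2 fold change of −0.61. COL3A1 (ENSG00000168542, GRCh38 chromosome 2, 188974320 to 189012746, forward strand), the type III collagen chain, had 13210, 12950, 12130 and 12220 normalised counts in WT Sor and 5141, 4089, 4240 and 3492 in WNK2 trans Sor (log2 fold change −1.57, SE 0.09, adjusted p = 1.15e-12). COL1A1, the main chain of type I collagen, fell from between 52510 and 55970 to between 15360 and 27750 (log2 fold change −1.36, SE 0.13, adjusted p = 2.42e-08), and FN1, fibronectin, from between 473000 and 526000 to between 287800 and 395800 (log2 fold change −0.59, SE 0.11, adjusted p = 0.000251). POSTN, periostin, had 6751, 6678, 7194 and 6729 and 2470, 2454, 2544 and 1976 (log2 fold change −1.53, SE 0.12, adjusted p = 2.58e-10), and no transfected library came near the controls. FBLN2, a fibulin, and MFAP4, a protein of elastic fibres, fell, with log2 fold changes of −2.30 (SE 0.22, adjusted p = 1.67e-08) and −2.26 (SE 0.15, adjusted p = 4.29e-11). With GC and length trends removed, 25 fell and 6 rose, with the median again at −0.61. In the basement membrane, 7 of 21 genes fell, among them COL4A1 (log2 fold change −0.93, SE 0.09, adjusted p = 1.1e-08), and 3 rose, with a median log2 fold change of −0.18, while with GC and length trends removed 8 fell and 5 rose and the median was 0.04.

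The receptors of the matrix were split. Of 18 tested integrin subunits, 5 rose and 5 fell (27.8% each way, against 16.1% and 15.5% of all genes). ITGA11 (ENSG00000137809, GRCh38 chromosome 15, 68296533 to 68432162, reverse strand), the collagen-binding alpha 11 chain, had 3324, 3338, 3789 and 3464 normalised counts in WT Sor and 892, 906, 900.4 and 935 in WNK2 trans Sor (log2 fold change −1.94, SE 0.08, adjusted p = 1.32e-14), the smallest p among the genes that fell. The transfected libraries lay close together and far from the controls. ITGB4, the beta 4 chain of hemidesmosomes, fell (log2 fold change −1.68, SE 0.20, adjusted p = 4.05e-07), and ITGB8, which binds latent TGF-beta, rose most. The number of integrin genes that rose was 3 without WNK2 trans Sor replicate 2 or without replicate 3.

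Of 49 tested genes of BMP and TGF-beta signalling, 10 rose (20.4%) and 17 fell (34.7%), with a median log2 fold change of −0.14. The rises were in 2 activin chains, in secreted inhibitors (NOG, GREM1, BMPER, FST, FSTL1) and in SMURF1, SMURF2 and SMAD1. INHBA, the activin A chain, had 2957, 2866, 3109 and 3078 normalised counts in WT Sor and 10060, 10710, 10560 and 10920 in WNK2 trans Sor (log2 fold change 1.81, SE 0.09, adjusted p = 2.18e-13), and INHBB, the activin B chain, 10.8 to 15.3 and 43.2 to 113 (log2 fold change 2.65, SE 0.32, adjusted p = 5.06e-07). The BMP inhibitor NOG, noggin, had a mean of 43.1 ± 6.16 and 332 ± 87.2 (SD, n = 4) (log2 fold change 2.94, SE 0.34, adjusted p = 3.34e-07). The activin inhibitor FST and FSTL1, a related glycoprotein, rose, with log2 fold changes of 1.40 (SE 0.16, adjusted p = 4e-07) and 1.87 (SE 0.22, adjusted p = 5.17e-07). CHRD, chordin, which also binds BMPs, went down from between 80.6 and 137 to between 4.01 and 28.9 (log2 fold change −2.54, SE 0.39, adjusted p = 1.7e-05).

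The target genes ID1, ID2, ID3, ID4, SMAD6 and SMAD7 were all among those that fell. ID1 (ENSG00000125968, GRCh38 chromosome 20, 31605283 to 31606515, forward strand), an inhibitor of basic helix-loop-helix factors and a direct BMP target, had 4096, 3675, 4202 and 4428 normalised counts in WT Sor and 969, 501, 734 and 643 in WNK2 trans Sor (log2 fold change −2.53, SE 0.16, adjusted p = 1.28e-11). ID3, its relative, fell from between 2448 and 2748 to between 365 and 846 (log2 fold change −2.20, SE 0.21, adjusted p = 2.44e-08). SMAD6 and SMAD7, the inhibitory SMADs, had log2 fold changes of −1.78 (SE 0.15, adjusted p = 1.1e-09) and −1.21 (SE 0.13, adjusted p = 6.65e-08). The groups did not overlap for ID1, ID3, SMAD6 and SMAD7, and ID1, ID3 and SMAD6 were highest in WNK2 trans Sor replicate 1 within its group. Without WNK2 trans Sor replicate 4, 11 genes of the list fell.

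In NOTCH signalling the receptors NOTCH1, NOTCH3 and NOTCH4, the ligands JAG1, JAG2 and DLL3 and the targets HES1, HES4, HEY1 and NRARP fell. Of 29 tested genes of the list 12 fell (41.4%) and 3 rose (10.3%), with a median log2 fold change of −0.48. NOTCH3 (ENSG00000074181, GRCh38 chromosome 19, 15159038 to 15200981, reverse strand) had 4569, 4594, 4506 and 4309 normalised counts in WT Sor and 975, 364, 646 and 537 in WNK2 trans Sor (log2 fold change −2.84, SE 0.21, adjusted p = 2.11e-10), a fall of 7.15-fold with no overlap. The target genes HEY1 and HES1, both transcriptional repressors, had log2 fold changes of −1.62 (SE 0.18, adjusted p = 1.31e-07) and −0.72 (SE 0.19, adjusted p = 0.00468). HES1 was at 1944, 1754, 1786 and 1932 in WT Sor and 1645, 762, 828 and 1262 in WNK2 trans Sor, so that replicate 1 came close to the controls. NOTCH1 had a log2 fold change of −0.66 (SE 0.16, adjusted p = 0.00252), but with GC and length trends removed it was −0.18 (adjusted p = 0.175). The genes of this list were GC-rich (median 58.3%, against 48.5% over all tested genes), and in that fit 11 fell and 3 rose, with a median of −0.18.

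In the hedgehog pathway 7 of 13 tested genes fell (53.8%) and 1 rose (median log2 fold change −0.58). GAS1, a membrane protein that helps ligand binding, had 732, 739.5, 595 and 717 normalised counts in WT Sor and 207, 79.3, 129 and 118 in WNK2 trans Sor (log2 fold change −2.39, SE 0.20, adjusted p = 1.83e-09). The signal transducer SMO, the receptor PTCH1 and the transcription factor and target GLI1 fell, with log2 fold changes of −1.27 (SE 0.14, adjusted p = 1.8e-07), −0.86 (SE 0.14, adjusted p = 4.39e-05) and −1.53 (SE 0.27, adjusted p = 0.000119). After removal of GC and length trends, 7 fell and 2 rose, with a median of −0.33.

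In the WNT pathway 15 of 41 tested genes fell (36.6%) and 6 rose (14.6%), with a median log2 fold change of −0.34. Ligands went in both directions. WNT6 fell from 254, 249.7, 268 and 299 normalised counts in WT Sor to 45.7, 8.03, 23.2 and 50.5 in WNK2 trans Sor (log2 fold change −3.07, SE 0.35, adjusted p = 2.76e-07), and WNT5A, a ligand of non-canonical signalling, from between 10640 and 11650 to between 7090 and 7940 (log2 fold change −0.58, SE 0.10, adjusted p = 5.57e-05). WNT9A, a ligand of joint formation, rose from between 49.0 and 67.0 to between 92.3 and 279 (log2 fold change 1.68, SE 0.30, adjusted p = 0.000125) and WNT7B from between 122 and 164 to between 254 and 486 (log2 fold change 1.43, SE 0.25, adjusted p = 7.97e-05). ROR1, a receptor of WNT5A, rose as well (log2 fold change 1.69, SE 0.21, adjusted p = 1.25e-06), while FZD1, FZD2, FZD7, FZD8 and FZD9, all frizzled receptors, fell.

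Among 28 tested genes of FGF and EGF signalling 11 fell (39.3%) and 6 rose (21.4%). FGFR3, the FGF receptor that restrains growth plate chondrocytes, had 691, 725, 775 and 729 normalised counts in WT Sor and 357, 140.5, 217 and 213 in WNK2 trans Sor (log2 fold change −1.66, SE 0.20, adjusted p = 5.46e-07). SPRY1, a feedback inhibitor of receptor kinases, fell from between 1204 and 1406 to between 329 and 395 (log2 fold change −1.92, SE 0.13, adjusted p = 3.79e-11). The ligands FGF5 and HBEGF rose, with log2 fold changes of 2.37 (SE 0.22, adjusted p = 8.56e-09) and 1.08 (SE 0.10, adjusted p = 5.11e-09). In RAC signalling, which moves the actin cytoskeleton, 14 of 42 genes rose (33.3%) and 6 fell (14.3%); DOCK4, an activator of RAC1, rose from between 473 and 596 to between 1668 and 2837 (log2 fold change 2.17, SE 0.19, adjusted p = 2.36e-09).

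Of the other WNK kinases, WNK1, WNK3 and WNK4, none was called. WNK1, the most widely expressed, had 6993, 7185, 7018 and 6279 normalised counts in WT Sor and 5959, 7050, 7864 and 7322 in WNK2 trans Sor, a log2 fold change of 0.04 (SE 0.13, adjusted p = 0.854). Its level exceeded that of WNK2 in both groups, at 112 TPM in WT Sor and 119 in WNK2 trans Sor, against 5.39 and 55.0 for WNK2. WNK3 and WNK4 had log2 fold changes of 0.06 (SE 0.16, adjusted p = 0.816) and −0.12 (SE 0.12, adjusted p = 0.496). Their substrate STK39 had 911, 897, 833 and 828 in WT Sor and 1516, 2237, 1855 and 1951 in WNK2 trans Sor (log2 fold change 1.12, SE 0.10, adjusted p = 4.22e-09), and OXSR1 had 2527, 2394, 2461 and 2286 and 2525, 3369, 3070 and 3332 (log2 fold change 0.35, SE 0.09, adjusted p = 0.00419); replicate 1 lay apart from the other transfected libraries for both. NEDD4L, the ubiquitin ligase that removes epithelial sodium channels, had 1435, 1238, 1518 and 1356 and 3852, 5345, 5264 and 4873 (log2 fold change 1.80, SE 0.11, adjusted p = 9.57e-12). SLC12A2, the sodium potassium chloride cotransporter that the pathway activates, was at 916 to 1056 and 860.4 to 1195 (log2 fold change 0.05, SE 0.16, adjusted p = 0.854). In all, 5 of 17 tested genes of the WNK pathway rose (29.4%, against 16.1% of all genes), WNK2 among them, and 2 fell (11.8%, against 15.5%).

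Of 32 tested genes of the osmolyte and tonicity response 5 rose (15.6%, against 16.1% of all genes) and 8 fell (25.0%, against 15.5%). The median log2 fold change was −0.05. TRPV4, the osmosensing calcium channel of chondrocytes, had 267, 223, 230.3 and 209 normalised counts in WT Sor and 156, 78.3, 126 and 98.2 in WNK2 trans Sor (log2 fold change −1.03, SE 0.17, adjusted p = 6.53e-05). AQP3, a water and glycerol channel, also fell (log2 fold change −1.39, SE 0.30, adjusted p = 0.00105). With GC and length trends removed, 11 genes of this list rose and 11 fell.

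The interferon response held the largest share of rises among the pathway lists in this comparison: 23 of 32 tested genes rose (71.9%, against 16.1% of all genes) and 1 fell, with a median log2 fold change of 0.90. The result was near the same with GC and length trends removed (24 rose and 1 fell, median 0.88). RSAD2, viperin, an antiviral enzyme, had 16.3, 17.9, 14.2 and 14.3 normalised counts in WT Sor and 105, 107, 114 and 85.4 in WNK2 trans Sor (log2 fold change 2.71, SE 0.34, adjusted p = 9.38e-07). MX1, an antiviral GTPase, rose from 66.4, 105, 94.4 and 73.5 to 302, 239.9, 273 and 212. IFI6 and the ubiquitin-like protein ISG15 had log2 fold changes of 1.52 (SE 0.17, adjusted p = 2.66e-07) and 0.81 (SE 0.19, adjusted p = 0.00249). GBP2, a guanylate-binding protein, was the one gene of the list that fell (log2 fold change −0.86, SE 0.22, adjusted p = 0.00463). IFIT1, IFIT2, IFIT3 and OAS2 were listed at 0 counts in all 24 libraries.

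In glycolysis and the hypoxia response 14 of 31 tested genes rose (45.2%) and 0 fell in edgeR, with a median log2 fold change of 0.26. At an unadjusted p under 0.05 edgeR gave 4 lower genes, and DESeq2 called 1. ADM, adrenomedullin, had 1150, 1152, 1330 and 1277 normalised counts in WT Sor and 4885, 3821, 3989 and 4260 in WNK2 trans Sor (log2 fold change 1.79, SE 0.12, adjusted p = 4.43e-11). The glucose transporter SLC2A1 (GLUT1), the angiogenic growth factor VEGFA and the lactate dehydrogenase LDHA rose, with log2 fold changes of 0.95 (SE 0.12, adjusted p = 1.78e-06), 0.93 (SE 0.10, adjusted p = 9.21e-08) and 0.86 (SE 0.11, adjusted p = 1.81e-06). Removal of GC and length trends left 20 that rose and 3 that fell. Of 25 tested genes of cholesterol biosynthesis 10 rose, the early enzyme HMGCS1 among them (log2 fold change 0.69, SE 0.13, adjusted p = 0.000278), and 2 fell. The number that fell was 0 without WT Sor replicate 1 or 3, and 1 without WT Sor replicate 2 or 4 or WNK2 trans Sor replicate 2 or 4.

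Of 31 tested genes of the unfolded protein response and ATF4 targets 13 fell (41.9%), 1 rose and 17 were not called, with a median log2 fold change of −0.25. The rise was not called without any 1 of the 8 libraries other than WNK2 trans Sor replicate 1. DDIT4, an inhibitor of mTORC1 that stress induces, had 1676, 1640, 1782 and 1818 normalised counts in WT Sor and 738, 306, 377 and 415 in WNK2 trans Sor (log2 fold change −1.92, SE 0.22, adjusted p = 2.94e-07). CHAC1, a glutathione-degrading enzyme, fell (log2 fold change −1.70, SE 0.27, adjusted p = 2.7e-05). ATF4, the transcription factor itself, had 10990, 10780, 10690 and 11260 and 9803, 6611, 6844 and 6774 (log2 fold change −0.54, SE 0.14, adjusted p = 0.00495), with replicate 1 apart from the other 3 transfected libraries. Of 58 nuclear-coded genes of oxidative phosphorylation 0 rose in edgeR (1 at an unadjusted p under 0.05, and 0 called by DESeq2) and 2 fell. The number that fell was 14 without WNK2 trans Sor replicate 1, and 0 without WT Sor replicate 1, 2 or 4 or WNK2 trans Sor replicate 2, 3 or 4. In the fit with GC and length trends removed 2 of them rose and 10 fell. Of 70 cytosolic ribosomal proteins 1 rose and 12 fell (17.1%, near the 15.5% of all genes). The second number moved from 3 to 32 as single libraries were left out, the highest again without WNK2 trans Sor replicate 1 and the lowest without replicate 3 or 4. It was 19 with GC and length trends removed. In PPAR and RXR signalling 12 of 23 genes fell (52.2%) and 1 rose (16 and 2 with those trends removed); RXRA, the partner of many nuclear receptors, and ANGPTL4, a lipase inhibitor and PPAR target, fell, with log2 fold changes of −0.88 (SE 0.14, adjusted p = 2.67e-05) and −1.31 (SE 0.18, adjusted p = 4.72e-06). In CREB and cAMP signalling 10 of 33 fell (30.3%) and 2 rose, with the phosphodiesterase PDE4B at a log2 fold change of −1.19 (SE 0.21, adjusted p = 8.13e-05).

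Of 43 tested genes of DNA replication and mitosis 15 rose (34.9%) and 7 fell (16.3%). CCND1, cyclin D1, which starts the cell cycle, had 1642, 1775, 1658 and 1750 normalised counts in WT Sor and 4301, 4931, 5691 and 5642 in WNK2 trans Sor (log2 fold change 1.59, SE 0.12, adjusted p = 4.74e-10). The number that fell was 4 without WNK2 trans Sor replicate 2 or 4. In the circadian clock 4 of 21 genes rose and 4 fell (19.0% each way), near the 16.1% and 15.5% of all genes. NPAS2, a partner of BMAL1, rose from between 347 and 391 to between 922 and 1319 (log2 fold change 1.58, SE 0.11, adjusted p = 4.43e-11), while the output factor DBP and the repressor PER1 fell, with log2 fold changes of −1.19 (SE 0.32, adjusted p = 0.00606) and −0.99 (SE 0.17, adjusted p = 8.79e-05). The number of clock genes that fell was 7 without WNK2 trans Sor replicate 1 and 9 with GC and length trends removed, and the number that rose was 2 without WNK2 trans Sor replicate 2.

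The remaining lists were split or little changed, where 16.1% of all genes rose and 15.5% fell. Among 34 tested transcription factors of chondrocytes and AP-1, 9 rose, PRRX1 and RUNX1 among them, and 10 fell, BARX1 and NFATC1 among them. Of 31 contractile genes and YAP/TEAD targets 7 rose, with F3 and ANKRD1, a target of YAP, at the top, and 6 fell, among them TPM1 and CNN1, which bind actin filaments. Of 24 NRF2 targets 4 rose (16.7%) and 6 fell (25.0%), HMOX1, heme oxygenase, and SLC7A11, the cystine transporter, among the latter. Of 21 pattern recognition receptors and adaptors 2 rose (IFIH1 and LY96) and 2 fell (CD14 and CASP1), and 4 fell without WNK2 trans Sor replicate 1, while 1 rose without WT Sor replicate 3 or 4 or WNK2 trans Sor replicate 4. Of 23 genes of death receptor signalling 4 rose (17.4%) and 3 fell (13.0%). In this list 2 rose without WT Sor replicate 2, 3 or 4 or WNK2 trans Sor replicate 2 or 4, while 2 rose and 6 fell with GC and length trends removed. Of 22 genes of microRNA biogenesis 3 rose (13.6%) and 2 fell (9.09%). Without WNK2 trans Sor replicate 1 these numbers were 5 and 3, without WNK2 trans Sor replicate 4 or any 1 WT Sor library 1 gene fell, and with GC and length trends removed 6 fell.

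**Figure D4:**
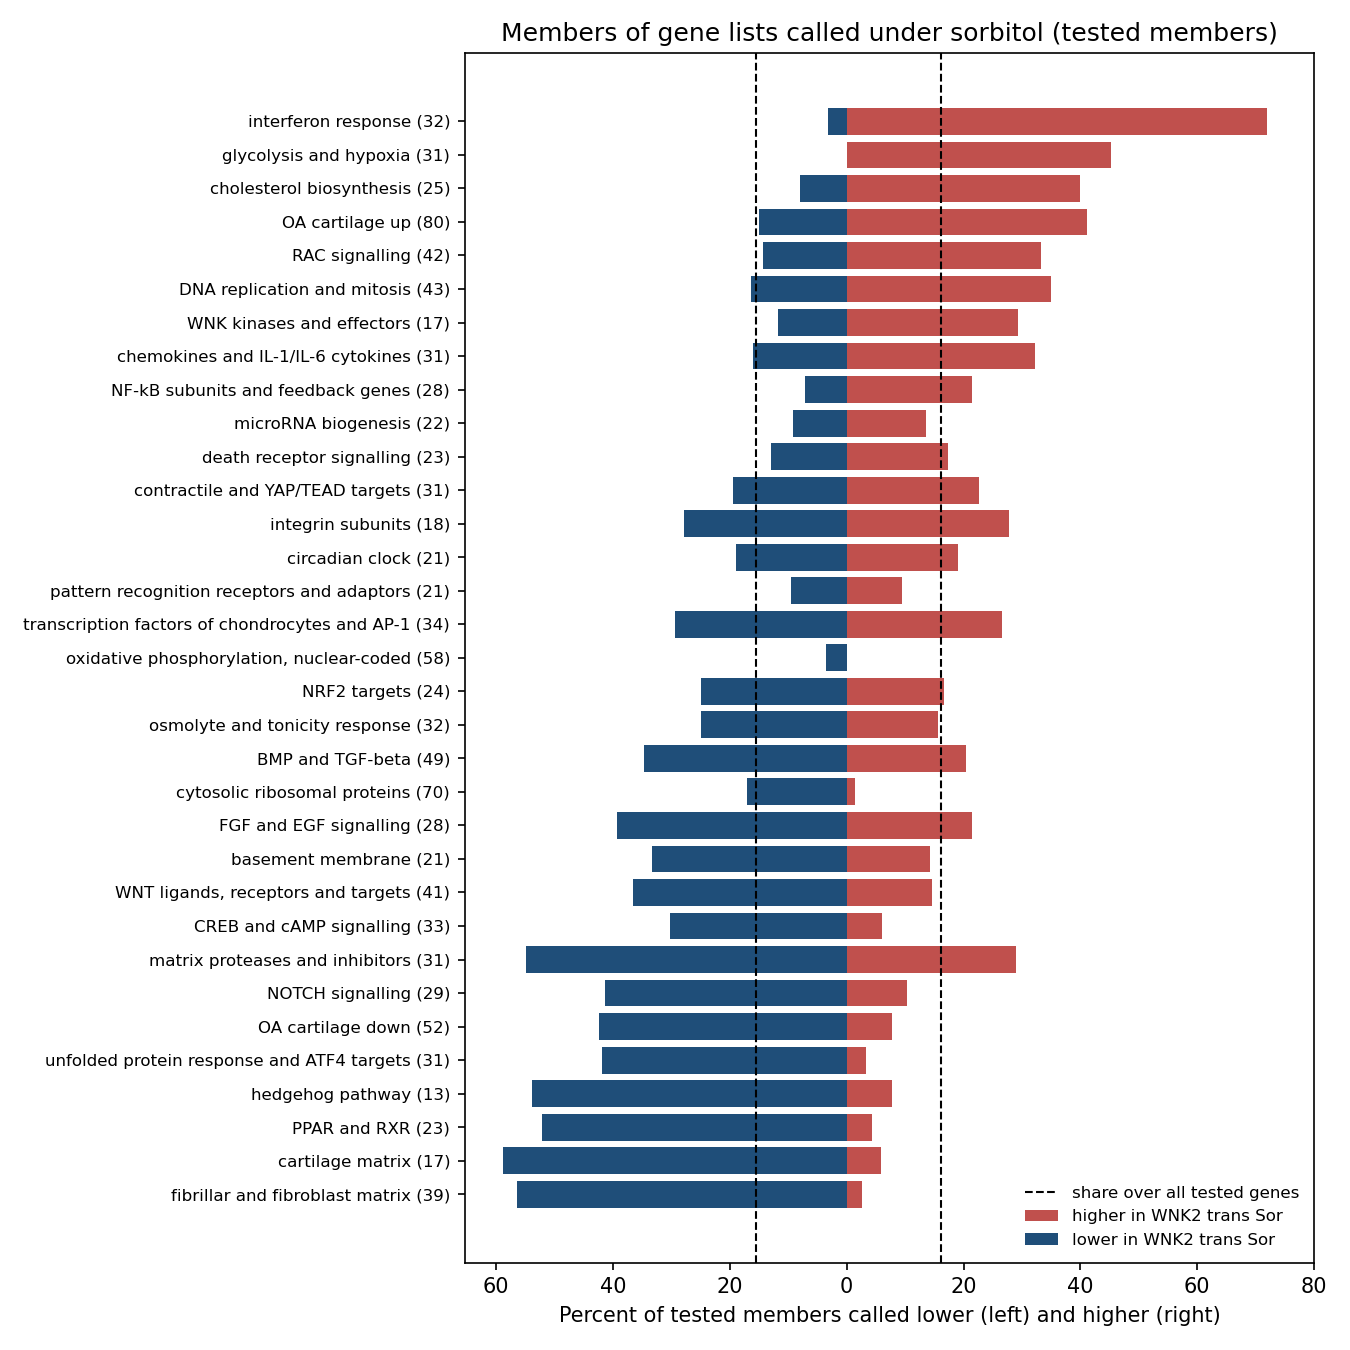
Percent of the tested members of each gene list called lower (bars to the left) and higher (bars to the right) in WNK2 trans Sor than in WT Sor; the number of tested members is in parentheses and dashed lines mark the shares over all 16600 tested genes, 15.5% and 16.1%. Interferon response genes reach 71.9% higher and genes of the cartilage matrix 58.8% lower.

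The 10 largest rises among well-expressed protein-coding genes whose groups did not overlap were led by ESM1. ESM1 (ENSG00000164283, GRCh38 chromosome 5, 54977864 to 55022671, reverse strand), or endocan, a secreted proteoglycan known from activated endothelium, had 54.4, 49.0, 74.1 and 66.4 normalised counts in WT Sor and 1124, 1238, 1292 and 1436 in WNK2 trans Sor (log2 fold change 4.37, SE 0.18, adjusted p = 9.1e-15), a rise of 20.7-fold with the smallest p of the comparison. WFDC3, a whey acidic protein domain inhibitor of proteases on chromosome 20, had 49.0, 66.9, 62.9 and 64.3 and 661, 849, 710.2 and 864 (log2 fold change 3.66, SE 0.16, adjusted p = 1.66e-14), and WFDC10B of the same gene family 56.1 to 97.4 and 753 to 933 (log2 fold change 3.45, SE 0.23, adjusted p = 2.54e-11). F3 (ENSG00000117525, GRCh38 chromosome 1, 94529225 to 94541800, reverse strand), tissue factor, which starts coagulation, had 206, 238, 262 and 214 and 1283, 1545, 1392 and 1696 (log2 fold change 2.68, SE 0.11, adjusted p = 1.11e-14). WNK2 was the fourth of these rises. The others were SLC35F3 (2.96), a putative thiamine transporter, NTM (2.85), a neural adhesion protein, MGLL (2.55), the lipase of 2-arachidonoylglycerol, SAMD3 (2.54) and MYH15 (2.51), a myosin heavy chain. SERPINB7, an intracellular serpin, had the fourth smallest p of the rises, with 26.1, 32.3, 30.4 and 30.6 and 247, 309, 354 and 278 (log2 fold change 3.31, SE 0.16, adjusted p = 1.08e-13).

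The 10 largest falls were led by SAMD11, which had 609.7, 533, 479 and 614 normalised counts in WT Sor and 104, 26.1, 33.8 and 43.1 in WNK2 trans Sor (log2 fold change −3.46, SE 0.34, adjusted p = 2.5e-08), followed by NOTCH3. APOE, the lipid carrier apolipoprotein E, had 1084, 1081, 1186 and 1250 and 343, 126, 169 and 152 (log2 fold change −2.55, SE 0.27, adjusted p = 8.3e-08), and ICAM5, a neuronal adhesion molecule, 373 to 484 and 35.1 to 134 (log2 fold change −2.53, SE 0.32, adjusted p = 1.54e-06). For SAMD11, NOTCH3, APOE, ICAM5 and GAS1, replicate 1 was the highest and replicate 2 the lowest of the transfected libraries, as was also so for GC-rich genes as a whole. MGAT3 (−2.34), a glycosyltransferase of N-glycans, TMOD1 (−2.33), which caps actin filaments, MFAP4, ID1 and CEBPD (−2.26), an inflammatory transcription factor, made up the 10. By p, THBD, thrombomodulin, the endothelial cofactor that turns thrombin to an anticoagulant role, was also among the 5 strongest falls, at 1901 to 2415 in WT Sor and 424 to 564 in WNK2 trans Sor (log2 fold change −2.14, SE 0.12, adjusted p = 1.94e-12), and so was C7, a complement component, with 389.8, 376, 384 and 372 and 65.0, 55.2, 34.9 and 35.8 (log2 fold change −3.00, SE 0.18, adjusted p = 4.05e-12). Tissue factor thus rose and thrombomodulin fell in all 4 transfected libraries.

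Among genes of other types, the long non-coding LINC01204, LINC02742 and ENSG00000288098 rose most, by 3.07, 2.23 and 2.13 on the log2 scale, and GATA2-AS1, ENSG00000240093 and ENSG00000197813 had the largest falls (−1.59, −1.40 and −1.32). For LINC02742 and ENSG00000288098 the transfected libraries split, with replicates 2 and 4 (757.8 and 809, 2073 and 2051) above replicates 1 and 3 (320.1 and 417, 717 and 1007), all above the controls.

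The study supplies lists of genes that were higher or lower in several published OA studies, called here higher or lower in OA cartilage. The sources include normal chondrocytes treated with fibronectin fragments and paired intact and degraded cartilage of patients. A gene did not have to be in every source. All of the members listed here passed the filter on low counts. Of 80 genes higher in OA cartilage 33 rose (41.2%) and 12 fell, with a median log2 fold change of 0.18. The largest of these rises was MT2A, a metallothionein, with 6445, 6637, 5879 and 6855 normalised counts in WT Sor and 26300, 21360, 29030 and 20630 in WNK2 trans Sor (log2 fold change 1.91, SE 0.18, adjusted p = 1.4e-08), and the largest fall COL3A1. Of 52 genes lower in OA cartilage 22 fell (42.3%) and 4 rose (7.69%), with a median of −0.24. With GC and length trends removed, 40 rose and 19 fell in the first list and 6 rose and 22 fell in the second.

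Markers of other cell types were read in the same 8 libraries. Of the 10 chondrocyte markers, COL9A1 and CNMD were near 0 and SOX9 at 0. SOX9 and COL9A1 overlap other annotated genes, so their counts do not show that they were silent, and the study measured SOX9 by qPCR in this line. The markers COL2A1, ACAN, COMP, MATN3 and HAPLN1 were at the low to moderate levels above. COL11A2 was also lower in WNK2 trans Sor, and MATN1 was not called. The summed normalised count of the 10 was 1570 to 1673 in WT Sor and 2013 to 2879 in WNK2 trans Sor, most of it HAPLN1. Fibroblast markers summed to 72730 to 77060 and 30340 to 42020, with 5 of 8 tested lower, among them the growth factor receptor PDGFRB (log2 fold change −1.59, SE 0.14, adjusted p = 4.26e-09). VIM, an intermediate filament gene, was higher (log2 fold change 1.02, SE 0.17, adjusted p = 5.57e-05). Endothelial markers summed to 1276 to 1437 and 2058 to 2469, with 3 of 8 tested higher and 1 lower. CDH5 (ENSG00000179776, GRCh38 chromosome 16, 66366622 to 66404786, forward strand), VE-cadherin, had 169, 192, 166 and 161 and 951, 801, 986 and 948 (log2 fold change 2.42, SE 0.14, adjusted p = 4.16e-12). The receptor kinases TIE1 (log2 fold change 1.99, SE 0.19, adjusted p = 1.97e-08) and KDR (2.21, SE 0.84, adjusted p = 0.0476) were also higher, KDR close to the threshold. The number of endothelial markers that were higher was 2 without WNK2 trans Sor replicate 1, and 2 with GC and length trends removed. PECAM1, VWF, ESAM and CLDN5 were not called. ERG, the endothelial transcription factor, was lower (log2 fold change −1.58, SE 0.41, adjusted p = 0.00465). Epithelial markers summed to 14830 to 16240 and 13770 to 21880, with KRT18 higher and ESRP1 lower among 6 tested (the first not without any 1 WT Sor library or WNK2 trans Sor replicate 1 or 2, the second not without WT Sor replicate 2), and osteoblast markers to 786.1 to 872.9 and 860.4 to 1190. Of 10 immune markers, 8 were under 10 normalised counts in all 8 libraries. ALPL, alkaline phosphatase of osteoblasts, had 2.18, 2.39, 0 and 1.02 in WT Sor and 20.5, 13.1, 13.7 and 8.26 in WNK2 trans Sor, both very low. Whether a change in the makeup of the culture has a part in these values was not tested, and in RNA from a whole culture fewer cells of a type and less RNA per cell cannot be told apart.

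The WNK2- libraries show where the same genes stood without the intact kinase, from a line that is 1 clone. WNK2 reads themselves were at 340.1, 419.4, 311.1 and 367.4 normalised counts in WNK2- Sor (replicates 1 to 4). The libraries labelled WT Sor, at 282.8 to 319, thus held no more WNK2 reads than most of the mutant libraries. The comparison would share the WT Sor libraries, so levels only are given, as mean normalised counts ± SD (n = 4). ESM1 stood at 61.0 ± 11.4 in WT Sor, 1272 ± 129.6 in WNK2 trans Sor and 1827 ± 49.4 in WNK2- Sor. MMP3 stood at 21.9 ± 2.96, 448 ± 150.1 and 1549 ± 55.7, and IL1B at 222 ± 31.9, 1116 ± 175 and 2556 ± 54.7. NOTCH3 stood at 4494 ± 129, 630.5 ± 257 and 349 ± 27.4, and COL3A1 at 12630 ± 537, 4240 ± 682 and 1065 ± 44.4. For these 5 genes the WNK2 trans Sor and the WNK2- Sor means lay on the same side of WT Sor. Among the genes that the study names, this was also so for MMP9, IL1A, WNT5B, RIPK2, GREM1, COL2A1, ACAN, COMP and MATN3. For others these means lay on opposite sides. HAPLN1 stood at 1221 ± 53.4, 2157 ± 429.5 and 329.9 ± 37.7, and IL6 at 1636 ± 151, 2887 ± 579 and 599 ± 39.5. RUNX2 stood at 791 ± 39.2, 1043 ± 153 and 239.6 ± 21.5, and MMP13 at 119 ± 11.8, 234 ± 32.4 and 55.6 ± 10.1. All of these are examples, and the share over all genes was not counted.

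Whether the differences depended on sorbitol was asked with the same comparison in isotonic media, which shares no library with that under sorbitol. As labelled, 2082 genes (12.5%) differed between WNK2 trans Ctr and WT Ctr, 924 higher and 1158 lower, and 5897 genes (35.5%) had an interaction of transfection and sorbitol. Of the 1389 genes called in both media, which are 26.4% of the calls under sorbitol and 66.7% of those in isotonic media, 1341 (96.5%) went in opposite directions and 48 in the same. Across the 16600 genes, which are not independent replicates, Pearson's r of the 2 log2 fold changes was −0.42 and Spearman's rho −0.47. Since the libraries labelled WNK2 trans Ctr go against their label in WNK2, the sign of each difference in either medium rests on the labels. So do the size and sign of each interaction, the number of genes called for it and the share that went in opposite directions. Were the isotonic labels alone exchanged, each interaction would be the sum of the 2 log2 fold changes, not their difference. Whether the labels are right was not tested. Of the 5254 calls under sorbitol, 5066 (96.4%) were made in the same direction without the 4 WNK2 trans Ctr libraries, where 5270 genes were called, and 4377 (83.3%) with the 8 libraries under sorbitol alone, where 4621 were called.

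CXCL8, CDH5, THBD, ITGA11 and ANXA3 were named for the 5 smallest interaction p, a choice that favours opposite directions, so their values are a description. CXCL8 had 1184, 1870, 1523 and 1313 normalised counts in WT Ctr and 257, 262, 265 and 256 in WNK2 trans Ctr, a log2 fold change of −2.50 (SE 0.13, adjusted p = 2.16e-12), against 2.49 under sorbitol. CDH5 had 153, 159.9, 199 and 259 and 26.1, 17.2, 19.1 and 21.8 in the same order, a log2 fold change of −3.20 (SE 0.18, adjusted p = 4.15e-12), against 2.42. THBD had 880.2, 890.5, 818 and 919.9 and 6360, 4569, 5394 and 5686 (log2 fold change 2.65), against −2.14, and ITGA11 had 1605, 1310, 1408 and 1435 and 3731, 3454, 3233 and 3707 (log2 fold change 1.29), against −1.94. ANXA3, a calcium-dependent phospholipid-binding protein, rose under sorbitol (log2 fold change 1.72, SE 0.10, adjusted p = 1.75e-12). MMP3 had 2.41, 4.74, 7.57 and 5.31 and 4.97, 3.28, 2.25 and 5.75 in isotonic media, a log2 fold change of −0.34 that was not called. The isotonic differences of WFDC3 and COMP were not called either.

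**Figure D5:**
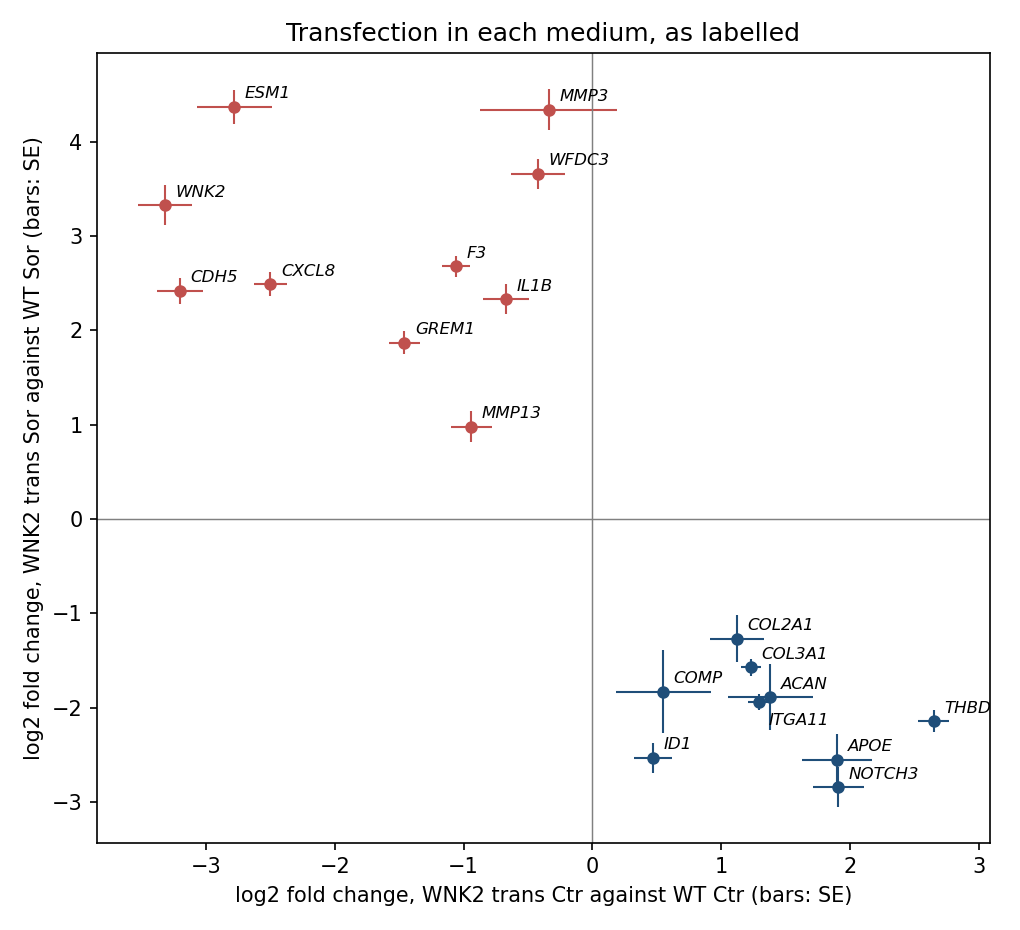
Log2 fold changes of the transfection in isotonic media (horizontal axis, WNK2 trans Ctr against WT Ctr) and under sorbitol (vertical axis, WNK2 trans Sor against WT Sor) for 19 genes, with bars of 1 SE, as labelled. Genes higher under sorbitol (red) lie to the left of 0 and genes lower under sorbitol (blue) to the right, WNK2 among them at −3.32 and 3.33.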

How the data were processed

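RNA was read from 24 libraries of T/C-28a2 cells, 4 in each of 6 groups taken from the labels. Per the study's methods and the submitters' processing notes, the authors prepared poly(A) libraries with NEBNext Ultra, checked reads with FastQC 0.11.9, aligned them to GRCh38 with HISAT2 2.2.1 and counted them per gene with HTSeq 2.0.2. These versions are those of the processing notes, and the study's methods name a different version of HTSeq. The deposited values are raw counts per gene. The annotation release and strand setting are not given in the sources used here.

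Counts were fitted in edgeR 4.0.16 (R 4.3.3, limma 3.58.1) with TMM scaling, filterByExpr (minimum count 10, total 15), a mean for each of 6 groups and quasi-likelihood F tests. Adjusted p (Benjamini-Hochberg) under 0.05 were called. The SE of a log2 fold change is its size divided by the root of F. GC content and gene length came from the reference annotation of GRCh38. DESeq2 1.42.0, other scalings, filters, library sets, thinning, removal of GC and length trends and leaving out each library were tried as alternatives. Scripts were tested on simulated data.

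Genes were named by 6 rules: key members of the gene lists, the 10 largest coding and 3 largest other rises and falls (adjusted p under 0.05, mean log2 CPM of at least 3, no overlap), the 5 smallest p each way, up to 3 of the largest rises and falls per list and the 5 smallest interaction p. ADAMTS1, BMPER, COL11A2, CSF1, CSF3, CXCL1, CXCL3, DLL3, FST, FZD1, FZD2, FZD7, FZD8, HES4, ID2, ID4, IL1RAP, INHBA, JAG2, LIF, NFATC1, NOTCH4, PLAUR, SMAD1, SMAD6, SMURF1, SMURF2 and WNT7B were named after their values were seen. Members and lists were chosen with earlier results of these data known. Total counts of 14908600 to 19054291 per library limit the precision of genes under about 10 normalised counts. Some genes that these rules name are not reported here.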

Additional observations from a re-analysis of the deposited data

Results flagged for a closer look

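In 274 groups of 4 libraries (the WT Sor and WNK2 trans Sor values of 137 genes), 13 had 1 library far from the other 3 by Dixon's 95% criterion for the gap to the nearest library over the range, where chance gives about 1 in 20 groups. In WNK2 trans Sor replicate 1 these were CEBPD at 302 normalised counts (the others up to 111), RUNX2 at 816 (the others from 1090), SPRY1 at 395 (the others up to 338) and ATF4 at 9800 (the others up to 6840). In WNK2 trans Sor replicate 2 they were VEGFA at 5490 (the others from 6560) and PTCH1 at 240 (the others from 302), and in replicate 4 TMOD1 at 239 (the others up to 176) and POSTN at 1980 (the others from 2450). In WT Sor replicate 2 they were MATN3 at 90.8 (the others up to 74.1) and FSTL1 at 98.0 (the others up to 81.7), and in WT Sor replicate 3 NTM at 135 (the others up to 111), GAS1 at 595 (the others from 717) and POSTN at 7190 (the others up to 6750).

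As labelled, the effect of transfection differed between sorbitol and isotonic media in 5897 genes by the interaction in edgeR. The interaction, the log2 fold change under sorbitol minus that in isotonic media, was 6.65 for WNK2, 7.15 for ESM1, 4.09 for WFDC3, 3.74 for F3, 4.99 for CXCL8, 5.62 for CDH5, 4.68 for MMP3, 1.92 for MMP13, 3.00 for IL1B and 3.33 for GREM1. It was −4.75 for NOTCH3, −4.45 for APOE, −3.00 for ID1, −3.23 for ITGA11, −2.81 for COL3A1, −4.79 for THBD, −3.27 for ACAN, −2.37 for COMP and −2.39 for COL2A1. The size and the sign of all of these rest on the labels, which the WNK2 counts of the libraries labelled WNK2 trans Ctr go against. Were the isotonic labels alone exchanged, each would be the sum of the log2 fold changes in both media, not their difference.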

How the results depend on the processing

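Of 2842 values of single genes under the alternatives, 2829 were counted as unchanged and 13 lost the call. The lost calls were of FOS, JUN, NOTCH1 and, with a minimum log2 change of 0.3 by glmTreat, RUNX2, OXSR1 and ATF4. Among the genes given here with values and called in the fit above, 0 reversed. For genes not called in that fit, a change of sign was counted as unchanged. Over all tested genes, 15 calls went in the opposite direction with GC and length trends removed. With single libraries left out, WNK1 reached −0.03 (from 0.04), WNK3 −0.02 (from 0.06) and SLC12A2 −0.04 (from 0.05) on the log2 scale. WNK2 was 3.18 to 3.44 with single libraries left out. The number of genes called under sorbitol was 4032 to 6628 with single libraries left out (2037 to 3078 higher, 1995 to 3550 lower; highest without WNK2 trans Sor replicate 1, lowest without replicate 2), 4660 with no filter on low counts, 5540 by DESeq2 and 2642 by glmTreat (1251 higher, 1391 lower). By glmTreat 804 genes were called in isotonic media (378 higher, 426 lower) and 1986 had a higher interaction. In isotonic media 1333 were called from the 16 libraries with the unedited gene (594 higher, 739 lower), 3126 with GC and length trends removed (1533 higher), and 1489 to 2684 with single libraries left out (672 to 1197 higher, 796 to 1487 lower). The interaction held in 5156 to 6907 genes with single libraries left out (2538 to 3328 higher, 2605 to 3661 lower). The cause of these moves was not tested, except that glmTreat asks for a larger change and smaller sets hold fewer libraries. Replicate numbers did not pair the libraries (correlations of deviations -0.03 to 0.04 under sorbitol, 0 pairs above 0.1), and with the replicate number as a block 5155 genes were called in 24 libraries and 4333 in 8. Of 1680 counts over lists, 186 moved by more than 1.5 times. Genes at few counts, such as COMP, PRG4 and ALPL, are limited by depth.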
